A study of Mus musculus with 5 samples.

Results

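The regions described here are the gene desert regions of macroH2A1.2-GFP, that is, regions called by chromatin immunoprecipitation and sequencing (ChIP-Seq) that lay far from any gene promoter. Called regions of 4 samples were merged wherever they shared 1 bp, and a merged region was kept as a member if it was autosomal and its midpoint was more than 500 kb from every transcription starting site (TSS) of a protein-coding gene of GENCODE M21 (mm10). There were 3015 members among 61942 autosomal merged regions (4.87%) and 62927 merged regions in all. The rule used position alone and no measured level. The cells were 3T3-L1, a mouse fibroblast line that differentiates into adipocytes, and all samples carried a lentivirus for stable expression of macroH2A1.2 fused to GFP, so the tagged and not the endogenous histone was measured. The labels and results name these cells, whereas the study's methods for the immunoprecipitation name adipose tissue of mice, and the labels give no final day of differentiation. Chromatin was digested with micrococcal nuclease and immunoprecipitated with an anti-GFP antibody (ab290). There were 2 replicates of pre-adipocytes, taken before differentiation, and 2 of mature adipocytes, taken after induction for 60 h with insulin (10 µg/ml), dexamethasone (0.25 µM) and IBMX (500 µM) and maintenance in medium without IBMX and dexamethasone. A single library made without antibody served as the control of all 4 samples, so control reads carry no replicate error.

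MacroH2A1.2 is a splice form of the histone variant macroH2A1, whose large carboxy-terminal macro domain sets it apart from ordinary H2A. It is deposited in broad stretches of chromatin, is best known from the inactive X chromosome and other silent chromatin, and has been tied to the regulation of differentiation genes. Gene deserts are long stretches without protein-coding genes. Some lie beside developmental genes such as Sox9 and hold their distant enhancers, and others are flanked by long neuronal genes and hold little known regulatory sequence.

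The autosomes held 301 deserts, defined as runs of sequence more than 500 kb from every protein-coding start, and each is named here by the genes on its left and right. Together they covered 232 Mb of 2403 Mb (9.67%). Members lay in 148 of them, and the other 153, with 90.5 Mb, held none. Midpoints of 105 members (3.48%) lay inside the body of a protein-coding gene so long that its start was over 500 kb away, so the label of gene desert does not hold strictly for these. They lay in Pcdh9 (36 members), Sugct (29), Fhit (22) and Lrrc4c (13), with 2 in Gpc6 and 1 each in Gpc5, Grm8 and Sgcz. Of all members, 2501 (83.0%) overlapped no annotated gene of any type, compared with 48.9% of the other autosomal regions. Long intergenic non-coding RNA (lincRNA) genes overlapped 293 members (9.72%) and 8.33% of the other autosomal regions.

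Some sequences of these deserts are printed to show what kind of DNA the regions lay on. RefSeq promoters (GRCm38.p6, 250 bases before to 50 after the start) lay wholly inside members in 60 cases, from 57 genes, and 59 of the 60 were promoters of long non-coding RNAs. The 4 sequences are promoters inside members called in all 4 samples, from the desert of at least 500 kb with the highest coverage (Gm11677), the desert beside Cited2 (Gm40604), the desert with the most members (Gm33890) and the desert between Lrrtm3 and Reep3 (1700023F02Rik). Gm11677 is listed by RefSeq as protein-coding. Each is written from 5′ to 3′ on its own strand, and capitals mark CpG dinucleotides, the bases at which mammalian DNA is methylated.
Gm11677, chr11:111726252-111726551, minus strand: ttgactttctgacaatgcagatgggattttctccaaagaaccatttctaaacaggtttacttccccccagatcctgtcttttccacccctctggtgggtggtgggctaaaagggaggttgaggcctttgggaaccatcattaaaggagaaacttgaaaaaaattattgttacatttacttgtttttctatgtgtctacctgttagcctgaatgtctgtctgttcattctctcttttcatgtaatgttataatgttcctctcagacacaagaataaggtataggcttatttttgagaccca
Gm40604, chr10:15760024-15760323, minus strand: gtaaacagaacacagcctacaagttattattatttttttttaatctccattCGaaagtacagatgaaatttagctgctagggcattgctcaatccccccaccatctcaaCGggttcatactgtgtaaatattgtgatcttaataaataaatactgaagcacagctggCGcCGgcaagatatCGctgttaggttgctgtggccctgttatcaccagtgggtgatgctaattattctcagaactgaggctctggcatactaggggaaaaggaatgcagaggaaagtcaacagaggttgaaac
Gm33890, chr17:60958897-60959196, minus strand: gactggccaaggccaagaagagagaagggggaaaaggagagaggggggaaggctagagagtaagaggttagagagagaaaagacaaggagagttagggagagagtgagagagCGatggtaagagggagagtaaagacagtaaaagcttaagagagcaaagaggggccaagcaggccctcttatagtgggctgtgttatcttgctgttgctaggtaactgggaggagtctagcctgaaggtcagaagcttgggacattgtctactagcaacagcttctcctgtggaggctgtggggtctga
1700023F02Rik, chr10:66200442-66200741, minus strand: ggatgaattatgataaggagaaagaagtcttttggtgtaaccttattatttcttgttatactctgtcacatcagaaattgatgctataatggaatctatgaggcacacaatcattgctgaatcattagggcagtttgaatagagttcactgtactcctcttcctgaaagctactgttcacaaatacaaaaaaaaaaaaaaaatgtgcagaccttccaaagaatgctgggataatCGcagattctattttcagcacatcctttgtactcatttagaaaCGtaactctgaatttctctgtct

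These promoters were poor in CpG, as their few capitals show. The promoter of Gm11677 held 0 CpG and that of Gm40604 held 5, with GC contents of 39.3% and 41.7%. Over the 60 promoters inside members the median GC content was 42.7% and the median number of CpG was 2, compared with 48.7% and 4 in 11252 other autosomal promoters of long non-coding RNAs and 53.0% and 7 in all 31396 autosomal promoters. There was no CpG in 13 of the 60 (21.7%), compared with 6.67% of the other non-coding promoters and 5.25% of all. The letters AGATAA, a core bound by GATA factors, were found on either strand in 12 of the 60 (20%), in 13.9% of the other non-coding promoters and in 11.2% of all. The letters TATAAA, the TATA box, were found on either strand in 14 of the 60 (23.3%), in 15.2% and in 13.6%. The 2 motifs can overlap by sharing bases, and no test was applied to these shares.

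In every sample, desert sequence was covered by called regions less often than the rest of the autosomes, and coverage within the deserts was lowest beyond 1000 kb from a start. Values of samples are given throughout in the order replicate 1 and replicate 2 of pre-adipocytes, then replicate 1 and replicate 2 of mature adipocytes. Called regions covered 7.01%, 4.26%, 7.06% and 6.87% of desert sequence. They covered 12.1%, 5.90%, 12.7% and 12.3% of the other autosomal sequence. Replicate 2 of pre-adipocytes had the lowest coverage on both sides. It was the smallest library, at 0.549 times the size of the control library against 1.2 to 1.23 times for the other 3 samples. Its part in several results is given below. The ratio of desert to other coverage was 0.581, 0.722, 0.555 and 0.558, below 1 in 4 of 4 samples. On the log2 scale this was a difference of -0.74 ± 0.18 (SD, n = 4 samples, exact sign-flip permutation test, two-sided p = 0.13, the smallest p that 4 samples allow). Assembly gaps were not removed from either kind of sequence.

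Coverage was highest at middle distances and not next to promoters. Sequence from 50 to 100 kb from a start was covered at 14.9%, 7.36%, 15.9% and 15.4%. Within 10 kb of a start it was 8.64%, 3.92%, 8.73% and 8.35%. From 500 to 750 kb, just inside the deserts, coverage was 8.66%, 5.15%, 9.02% and 8.74%, above the level within 10 kb of a start in each sample. Beyond 1000 kb it was 5.10%, 3.41%, 5.17% and 5.09%. In 4 of 4 samples coverage was lower beyond 1000 kb than in each nearer bin. At the limit itself, 478 members lay from 500 to 550 kb and 530 merged regions from 450 to 500 kb. Over the regions of each sample before merging, median fold enrichments were 1.56, 1.95, 1.72 and 1.75 inside the limit. Outside it they were 1.56, 1.94, 1.76 and 1.79.

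**Figure D1:**
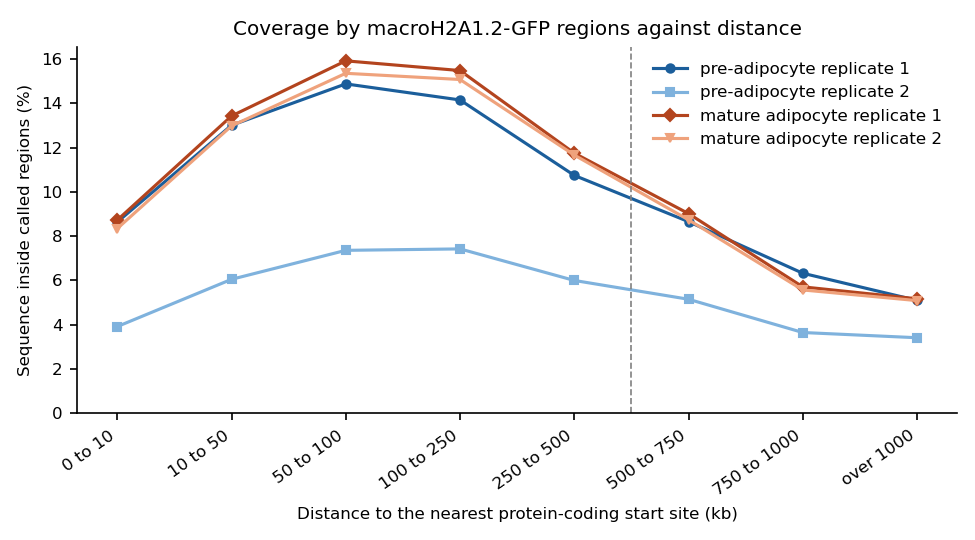
Percent of autosomal sequence inside called regions (vertical axis) in bins of distance to the nearest protein-coding start in kb (horizontal axis), with 1 line for each sample and the dashed line at the 500 kb limit. All 4 lines peak between 50 and 250 kb and are at 3.41% to 5.17% beyond 1000 kb.

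As a class, desert regions resembled other regions in strength and size. The median fold enrichment over control was 1.56, 1.95, 1.72 and 1.74 in desert regions and 1.61, 2.01, 1.80 and 1.82 in other autosomal regions. Desert regions were lower in 4 of 4 samples, with a difference of -0.0694 ± 0.0115 (SD, n = 4, exact sign-flip permutation test, two-sided p = 0.13). The control moved the other way. Control reads per kb had a median of 18.4, 19.3, 18.4 and 18.6 in desert regions and 17.3, 18.1, 17.1 and 17.2 in other regions, higher by 1.22 ± 0.148 in 4 of 4 samples (n = 4, exact sign-flip permutation test, two-sided p = 0.13). The part of this background in the fold enrichment was not tested. Without division by the control reads, the order was reversed. ChIP reads per region length, divided by library size relative to the control and taken as log2, had the higher median in desert regions. The difference was 0.0531 ± 0.0119, higher in 4 of 4 samples (SD, n = 4, exact sign-flip permutation test, two-sided p = 0.13). The direction of the small difference in strength therefore depended on the measure. Desert regions had a median length of 5800, 3200, 3800 and 3600 bp, against 5800, 3000, 3600 and 3400 bp for the others (n = 4, exact sign-flip permutation test, two-sided p = 0.25). As merged regions, members ranged from 200 to 184800 bp with a median of 4600 bp, and 134 of them (4.44%) reached 30 kb or more, compared with 3.13% of other autosomal regions.

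Members were unevenly spread, with 738 of them (24.5%) in 5 deserts and 1116 (37.0%) in 10. The desert between Nudt12, a nucleotide hydrolase, and Efna5, an ephrin ligand that guides growing axons, held the most, 259 members in 2.87 Mb of chromosome 17. Called regions covered 40.4%, 22.7%, 27.9% and 25.5% of it. The longest desert, 4.41 Mb between Pcdh20 and Pcdh9, which encode protocadherins of neuronal cell adhesion, held 166 members but was covered at only 11.8%, 7.34%, 7.30% and 7.24%. The desert between Zeb2, a transcriptional repressor of epithelial genes, and Acvr2a, an activin receptor, held 127 members and was covered at 48.8%, 31.8%, 62.6% and 59.3%. Both mature samples were above both pre-adipocyte samples there, but not after division by the coverage of the non-desert sequence of the same sample (4.05, 5.39, 4.93 and 4.82). Between Nmbr, a neuropeptide receptor, and Cited2, a transcriptional coregulator, 96 members covered 67.1%, 41.4%, 68.9% and 66.6%. The desert between Epha7, an ephrin receptor, and Map3k7, a kinase of inflammatory and TGF-beta signalling, held 90 members and was covered at 7.54%, 3.68%, 8.10% and 7.19%, so many members did not mean high coverage.

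**Figure D2:**
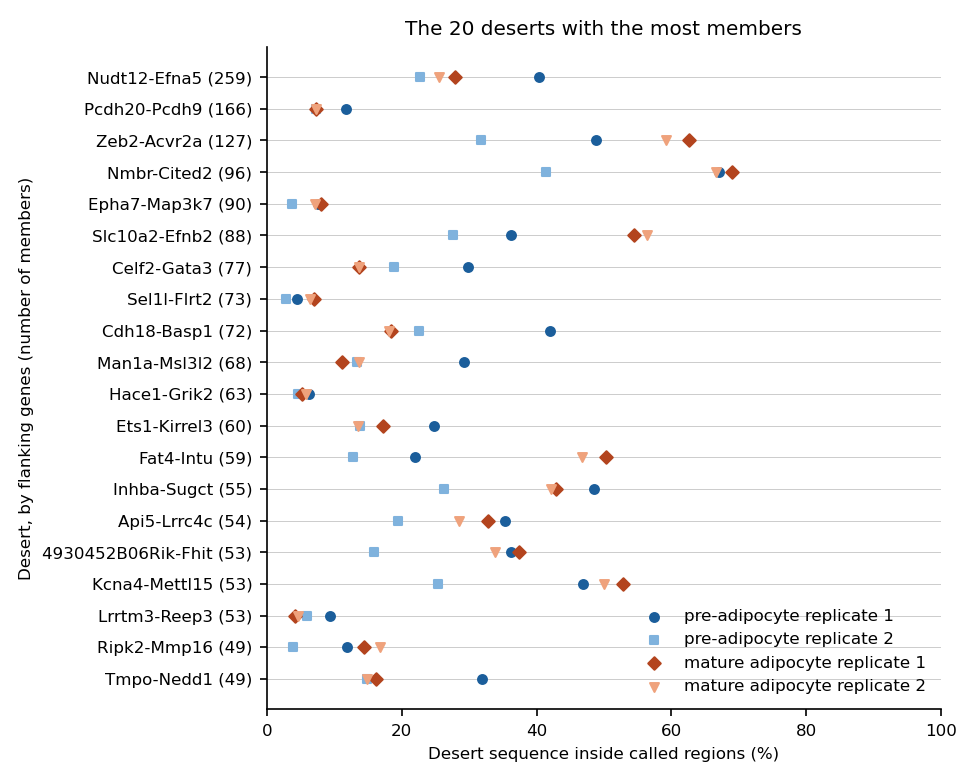
Percent of desert sequence inside called regions (horizontal axis) in the 20 deserts with the most members, named by flanking genes with the number of members in parentheses (vertical axis), with 1 symbol for each sample. Replicate 2 of pre-adipocytes is often the lowest, and coverage ranges from 2.81% in that sample at Sel1l-Flrt2 to 68.9% in replicate 1 of mature adipocytes at Nmbr-Cited2.

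Some deserts were covered over much of their length, and 6 of any length were covered over 50% in all 4 samples. Only 2 deserts of at least 500 kb were covered over 50% in all 4 samples. The first lay between Kcnj2, a potassium channel gene, and Sox9, the master regulator of cartilage formation, and is known for distant Sox9 enhancers. It was covered at 86.3%, 56.7%, 89.0% and 86.4%, and all of its 10 members were called in all 4 samples. The longest member of all, chr11:112017001-112201800 with 184800 bp, lay in it. Its fold enrichment was 1.71, 1.96, 1.88 and 1.87, and its log2 ratio of read density in mature adipocytes over pre-adipocytes was 0.06 ± 0.06 (SE, adjusted p = 0.817, edgeR's quasi-likelihood test with Benjamini-Hochberg adjustment). The promoter of Gm11677 printed above lay in another member of this desert, of 61400 bp, with fold enrichments of 1.75, 1.97, 1.83 and 2.00. The other desert lay between Myc, the growth-promoting transcription factor, and Gsdmc, a gasdermin, and was covered at 82.8%, 53.7%, 79.3% and 75.9%. Next in lowest coverage among deserts of at least 500 kb was the one between Marcks, a membrane substrate of protein kinase C, and Rfpl4b, at 73.4%, 46.1%, 77.6% and 78.1%. The next 2 longest members, chr8:103254601-103386600 and chr8:103479201-103600800, both lay between the cadherin genes Cdh11 and Cdh5. Their fold enrichments were low, at 1.30, 1.5, 1.38 and 1.39 in the first and 1.27, 1.54, 1.49 and 1.53 in the second.

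Other long deserts were nearly free of called regions. Of 16 deserts over 2.5 Mb, 9 were covered under 1% in every sample, and those named here were chosen after their values were seen. The 3 deserts over 2.5 Mb without a member were Cntnap5b-Cdh20 (3.52 Mb), Slc39a10-Tmeff2 (3.01 Mb) and D3Ertd751e-Pcdh10 (2.63 Mb). Tenm3-Aga, of 3.67 Mb and flanked by a teneurin of synapse formation, held 6 members and was covered at 0.185%, 0.289%, 0.159% and 0%. Cdh6-Cdh9, between cadherin genes, held 3 members in 2.56 Mb, and only replicate 2 of pre-adipocytes had a called region in it (0.297%). In contrast, Slc10a2-Efnb2, of 2.53 Mb beside another ephrin gene, held 88 members and was covered at 36.1%, 27.7%, 54.5% and 56.4%. Unmappable sequence also holds no regions, and how much of it these deserts contain was not analysed here.

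Chromosomes differed in the same way. Deserts of chromosomes 2 and 10 were covered more than the rest of their own chromosome in 4 of 4 samples, deserts of 14 chromosomes less in 4 of 4, and the other 3 chromosomes were mixed. On chromosome 10, with 405 members, desert coverage was 25.5%, 15.1%, 22.8% and 22.8% and that of the rest 14.6%, 7.09%, 15.8% and 15.4%. Chromosome 6 stood at the other end. Its 12.4 Mb of desert held 18 members and were covered at 0.465%, 0.383%, 0.0547% and 0.0531%, while the rest of the chromosome was covered at 15%, 7.60%, 14.5% and 13.9%.

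Each member was assigned to the nearest protein-coding start, which gave 226 genes, and these were grouped into gene lists. Cell adhesion and synaptic genes such as cadherins, protocadherins and contactins were nearest to 569 members (18.9%), compared with 2.85% of other autosomal regions. The same genes were nearest to 23.7% of desert sequence, so their share of members was below their share of sequence. Their desert sequence was covered at 3.80%, 2.28%, 2.65% and 2.52%, lower in each sample than desert sequence as a whole, and 27 of the 59 genes had no covered base on their side. Axon guidance and developmental signalling genes such as ephrins and their receptors were nearest to 364 members (12.1%) and to 4.70% of desert sequence, covered at 20.4%, 12.6%, 21.7% and 21.4%. Developmental transcription factors were nearest to 192 members (6.37%) and to 3.20% of desert sequence, covered at 24.7%, 15.4%, 22.8% and 22.5%. In both of these lists, 12 of 24 genes had no covered base, and most members came from few genes. Of the 364 members, 130 were nearest to Efna5, 84 to Epha7 and 50 to Efnb2. Of the 192, 56 were nearest to Gata3, 53 to Zeb2 and 32 to Nr2f1. Genes in no list held 68.2% of desert sequence, 1872 members (62.1%) and a coverage of 6.34%, 3.84%, 6.79% and 6.58%.

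The list of adipogenic regulators reached the deserts through 3 of its 22 genes, with 74 members. These were Gata3, a transcription factor that restrains adipocyte differentiation (56 members), Ppargc1a, the coactivator PGC-1 alpha of mitochondrial biogenesis (15), and Klf4, an early adipogenic factor (3). Gata3 is also in the list of developmental transcription factors, so its 56 members are counted in both lists. The 1.03 Mb of desert sequence nearest to them were covered at 43.7%, 24.9%, 24.3% and 26.9%. Replicate 1 of pre-adipocytes was above the other 3 samples, which lay close together, but replicate 2 of pre-adipocytes was the smallest library. In the whole Celf2-Gata3 desert, coverage divided by that of the non-desert sequence of the same sample was 2.47, 3.20, 1.08 and 1.11. Both pre-adipocyte samples were above both mature samples there. The conditions overlapped on that scale in Adgra3-Ppargc1a (1.12, 1.06, 0.924 and 1.35) and in Klf4-Gm26657 (5.24, 5.21, 5.22 and 5.12). The 23 members tested near these genes had a median log2 ratio of read density, mature adipocytes over pre-adipocytes, of -0.06. The median over all regions tested was 0.00. Of the 23, 18 were nearest to Gata3, with a median of -0.07.

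The conditions did not differ in overall desert coverage beyond the spread of replicates. Pre-adipocytes had 5.64% ± 1.95 of desert sequence covered and mature adipocytes 6.96% ± 0.132 (SD, n = 2 each, exact permutation test, two-sided p = 0.667). Without replicate 2 of pre-adipocytes the difference went from 1.32 to -0.052 percentage points. Desert regions made up 5.50% and 6.62% of autosomal regions in pre-adipocytes and 4.60% and 4.64% in mature adipocytes. Both pre-adipocyte samples were therefore higher, by 1.44 percentage points on average (two-sided exact permutation p = 0.33, the smallest p that 2 samples against 2 allow). Pre-adipocytes likewise had the higher ratio of desert to other coverage, 0.652 ± 0.0993, against 0.557 ± 0.00196 for mature adipocytes (SD, n = 2 each, exact permutation p = 0.33). Without replicate 2 of pre-adipocytes, this difference (mature minus pre-adipocyte) shrank from -0.0949 to -0.0247, and that in share from -1.44 to -0.879 percentage points. Without replicate 1 of pre-adipocytes they were -0.165 and -2.00 percentage points. Autosomal regions numbered 36165 and 38232 in pre-adipocytes and 58780 and 60593 in mature adipocytes, so the lower share went with a larger total, and desert regions themselves numbered 1989 and 2530 against 2704 and 2812.

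Members were called in pre-adipocytes alone more often, and in mature adipocytes alone less often, than autosomal regions in general, a description without a test. Of the members, 735 (24.4%, 95% Wilson interval 22.9% to 25.9%) were called in all 4 samples, compared with 20.4% of other autosomal regions. A further 290 (9.62%) were called in both mature samples and neither pre-adipocyte sample, where the share over all autosomal merged regions was 12.9%. Conversely, 96 (3.18%) were called in both pre-adipocyte samples and neither mature sample, where the share over all autosomal regions was 1.62%. Members called in replicate 2 of pre-adipocytes alone numbered 347 (11.5%, compared with 6.25% of other regions). Those called in replicate 1 of pre-adipocytes alone numbered 198 (6.57%, compared with 5.07%). For replicates 1 and 2 of mature adipocytes alone the shares were 10.6% and 11.2%, compared with 14.6% and 15.1% of other regions. The part of library size in these shares was not tested. Intervals cover counting error only, and neighbouring members of 1 desert are not independent.

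**Figure D3:**
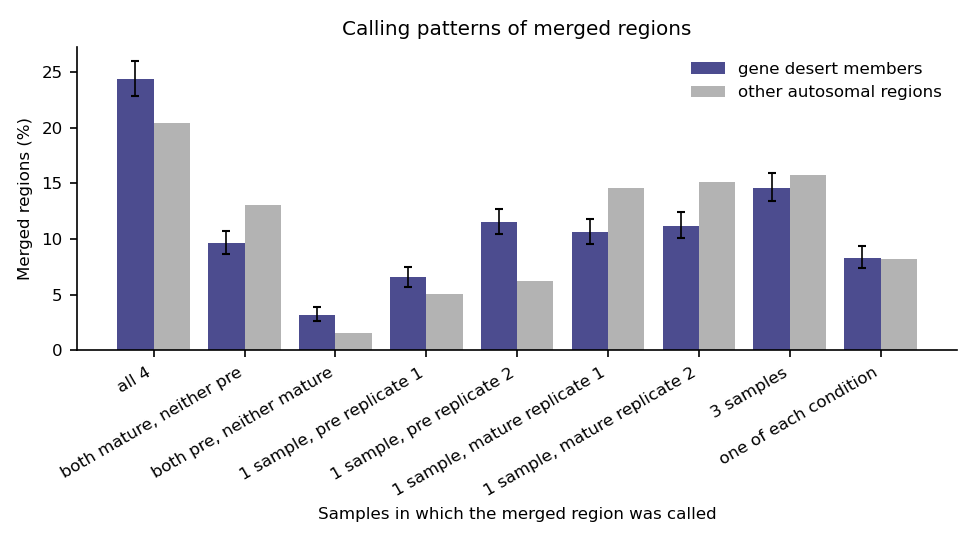
Percent of merged regions (vertical axis) by the samples in which they were called (horizontal axis), for the 3015 members (dark bars, with 95% Wilson intervals of counting error) and the other 58927 autosomal regions (grey bars). Members are above the others for regions called in all 4 samples, in both pre-adipocyte samples alone and in either pre-adipocyte sample alone. They are below them for regions called in both mature samples alone and in either mature sample alone.

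Among regions called in a single condition, the strongest lay in a few deserts. In both mature samples alone, chr14:71456201-71458800 between Gfra2, a neurotrophic factor receptor, and Gm9195 had fold enrichments of 3.64 and 3.39. In the same pattern, chr10:65873001-65876600 between Lrrtm3, a synaptic adhesion gene, and Reep3 had 3.23 and 3.62. In both pre-adipocyte samples alone, chr14:71711601-71716000, again between Gfra2 and Gm9195, had 3.15 and 7.65, and the second value rested on 42 ChIP and 10 control reads. Also in this pattern, chr14:92499601-92504200 between Pcdh20 and Pcdh9 had 3.15 and 2.97. Among members called in all 4 samples, ranked by their lowest fold enrichment, the top ones also lay in the Gfra2-Gm9195 desert. There chr14:71506801-71515400 had fold enrichments of 3.04, 3.02, 3.43 and 3.13, and chr14:71720001-71729800 had 2.97, 2.98, 2.93 and 3.45. After them came chr16:71283201-71287600, between the glycogen enzyme gene Gbe1 and the axon guidance receptor Robo1, at 2.52, 2.88, 2.62 and 2.75. Regions called in a single condition and in all 4 samples thus stood within the Gfra2-Gm9195 desert. Over its called regions together the control had 12.3, 12.3, 12.4 and 12.5 reads per kb. The medians of single desert regions were 18.4, 19.3, 18.4 and 18.6. In chr14:71506801-71515400 the ChIP reads per kb, divided by relative library size, were 28.5, 33.0, 31.0 and 27.1. The part of the low control in these fold enrichments was not tested.

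At the level of whole deserts, some moved in each direction. Of the 66 deserts with at least 10 members, 29 (43.9%) were covered more in both mature samples than in both pre-adipocyte samples, and 13 (19.7%) the other way round. In 1554 autosomal windows of 1 Mb without desert sequence and with at least 1% coverage in a sample, the shares were 47.8% and 3.99%. Because libraries differed in size, coverage was also divided by that of the non-desert sequence of the same sample, an alternative chosen after seeing the data. On that scale 18 deserts (27.3%) were higher in mature adipocytes and 30 (45.5%) in pre-adipocytes, compared with 34.6% and 27.5% of the windows. Deserts and windows differ in length and in how they were chosen, and no test was applied.

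The deserts named next were chosen after their values were seen and carry no test. Between Dnah5, a ciliary dynein, and Ctnnd2, a neuronal catenin, coverage was 12.9% and 6.94% in pre-adipocytes and 1.38% and 2.37% in mature adipocytes, a mean 5.28 times higher in pre-adipocytes. Between Celf2, an RNA-binding protein, and Gata3, it was 29.8% and 18.9% against 13.7% and 13.7%. The desert between Cdh18, a cadherin, and Basp1, a growth cone protein, was covered at 42.0% and 22.5% against 18.4% and 18.1%. The opposite case was the desert between Agtr1b, an angiotensin receptor, and Tbl1xr1, a corepressor subunit, at 2.34% and 2.09% in pre-adipocytes and 20.3% and 19.1% in mature adipocytes, a mean 8.89 times higher. Of its 42 members, 16 were called in both mature samples and neither pre-adipocyte sample. Between Bckdhb, a subunit of branched-chain keto acid dehydrogenase, and Gm11114, coverage was 25.3% and 11% against 66.4% and 53.0%.

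**Figure D4:**
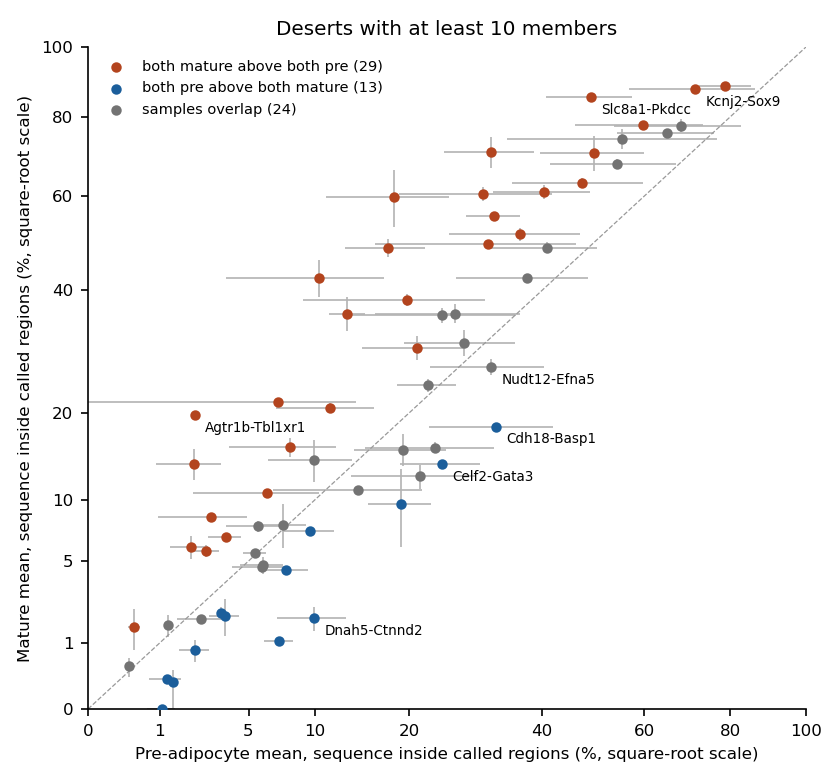
Mean percent of desert sequence inside called regions in pre-adipocytes (horizontal axis) and mature adipocytes (vertical axis), both on a square-root scale, for the 66 deserts with at least 10 members, with grey lines spanning the 2 replicates of each condition and the dashed line marking equality. The 29 deserts in red were higher in both mature samples and the 13 in blue in both pre-adipocyte samples, and spans are wider along the pre-adipocyte axis.

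Read density within called intervals was compared for regions called in all 4 samples, 12857 in the whole series and 735 among the members, with edgeR's quasi-likelihood test and the summed called length as an offset. Since a region had to be called in every sample and only reads inside calls were counted, this test leaves out regions gained or lost. Of the 735 members, 5 were higher in mature adipocytes at an adjusted p under 0.05, compared with 0.0778% of all regions tested, and 0 were lower, compared with 0.00778%. At an unadjusted p under 0.05, 46 members were higher and 18 lower (8.71% together). The share of all regions tested was 9.15%, with 613 higher and 563 lower. DESeq2 called 2 members higher and 0 lower, and 2 and 0 of all regions. The median log2 ratio of members was 0.01, and that of all regions tested was 0.00. All 5 members lay in 1 desert, between Slc8a1, the cardiac sodium-calcium exchanger, and Pkdcc, a secreted kinase of skeletal development, on chromosome 17. They were neighbours and may share 1 difference, and they are not 5 independent observations.

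The Slc8a1-Pkdcc desert was 0.477 Mb long and held 14 members. Called regions covered 57.4% and 40.8% of it in pre-adipocytes and 86.2% and 84.5% in mature adipocytes. Divided by the coverage of the non-desert sequence of the same sample, these became 4.76 and 6.91 against 6.79 and 6.87, so the conditions overlapped on that scale. In pre-adipocytes 10 and 8 of the 14 members were called, and in both mature samples all 14. Over the called regions of each sample, which spanned 288, 202, 426 and 418 kb and so were not the same sequence, the fold enrichment was 1.56, 1.80, 2.05 and 2.07. The control had 22.7, 23.2, 22.1 and 22.2 reads per kb of called sequence. ChIP reads per kb of the same sequence, divided by relative library size, were 35.4, 41.8, 45.2 and 46.0. The 5 members rose unevenly. In chr17:82484001-82524000 the ChIP reads per kb, divided by relative library size, were 30.7 and 33.0 in pre-adipocytes and 46.5 and 47.9 in mature adipocytes, without overlap, and the log2 ratio was 0.55 ± 0.07 (SE, adjusted p = 9.564e-06, edgeR's quasi-likelihood test with Benjamini-Hochberg adjustment). In chr17:82281201-82377400 they were 34.6 and 40.2 against 46.5 and 47.7, with a log2 ratio of 0.35 ± 0.06 (adjusted p = 0.00597, same edgeR test). The other members, at chr17:82530201-82576400, chr17:82615601-82675400 and chr17:82470801-82481600, had log2 ratios of 0.41, 0.53 and 0.47 (adjusted p = 0.0141, 0.0141 and 0.0289, same edgeR test). In the same order, their scaled ChIP reads per kb were 29.5 and 39.2 against 43.0 and 44.0, 22.8 and 40.8 against 42.6 and 45.4, and 27.3 and 33.9 against 41.0 and 42.6. In the first 2 of these, replicate 2 of pre-adipocytes was closer to the mature samples than to replicate 1. Without replicate 1 of pre-adipocytes the log2 ratios were 0.33, 0.29 and 0.48.

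Called length changed more than density in the part of this desert nearest to Pkdcc. The member chr17:82615601-82675400 was called over 5800 and 9600 bp in pre-adipocytes and over 58000 and 55400 bp in mature adipocytes. The member chr17:82530201-82576400 was called over 24400 and 4000 bp against 45600 and 43800 bp. Nearest to Slc8a1, chr17:82224001-82279800 was called over 55800, 50800, 55800 and 55800 bp, with a log2 ratio of 0.13 ± 0.06 (SE, adjusted p = 0.543, same edgeR test). No protein-coding gene lies in the 5 members. The calls depended on scaling. With the library size taken relative to the control in place of TMM normalization, 0 members and 0 of all regions passed the test. Without the length offset, 0 members and 3 of all regions passed. Leaving out replicate 1 or 2 of mature adipocytes left 2 or 1 members called higher, and leaving out replicate 1 or 2 of pre-adipocytes gave 17 or 11. Calls over all regions rose as well in the latter fits, to 85 higher and 29 lower without replicate 1 of pre-adipocytes and to 86 higher and 111 lower without replicate 2. The 5 log2 ratios kept a positive sign in each alternative in which they were tested.

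**Figure D5:**
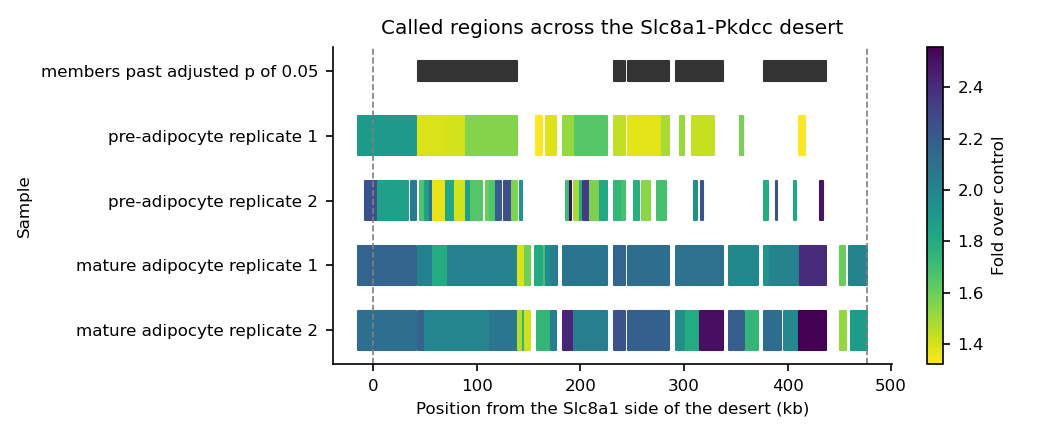
Called regions of each sample (vertical axis) along the Slc8a1-Pkdcc desert in kb from its Slc8a1 side (horizontal axis), coloured by fold enrichment over the control, with the 5 members past an adjusted p of 0.05 as black bars on top and dashed lines at the limits of the desert. Both mature samples are called along most of the 0.477 Mb (86.2% and 84.5%), and calls in pre-adipocytes thin out towards Pkdcc.

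The tested members with the lowest ratios did not pass the test. The lowest, chr13:16823201-16830400 between Inhba, an activin subunit, and Sugct, had a log2 ratio of -0.56 ± 0.19 (SE, adjusted p = 0.3, edgeR's quasi-likelihood test). It was called over 1600, 2400, 6000 and 4600 bp, so the higher density in pre-adipocytes lay in shorter calls. The next were chr14:9190801-9205200, between 4930452B06Rik and the tumour suppressor Fhit, at -0.50 ± 0.16, and chr14:93274001-93280600, between Pcdh20 and Pcdh9, at -0.46 ± 0.18.

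The members farthest from any promoter all lay between Pcdh20 and Pcdh9. The farthest, chr14:91291201-91295800, had its midpoint 2592 kb from the nearest start and was called in replicate 2 of pre-adipocytes only, with a fold enrichment of 2.23 from 76 ChIP and 62 control reads. The next, chr14:91322601-91328200 at 2560 kb, was called in replicate 1 of both conditions with fold enrichments of 2.09 and 2.05. The one after it, chr14:91367201-91371200 at 2517 kb, was again called in replicate 2 of pre-adipocytes only, at 2.19. None of the 3 was called in both replicates of a condition.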

How the data were processed

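Conditions and replicate numbers were taken from sample titles. In both mature samples and in the control without antibody, the description field disagrees with the title. It names the anti-GFP sample of undifferentiated cells. The authors mapped their single-end reads with Bowtie to the mm10 assembly (2 mismatches, unique reads), removed duplicates with Picard and called regions per sample with SICER. The submitters' processing notes give Bowtie 1.1.2 and SICER 1.1. Deposited values per region were the raw counts of ChIP and control reads, the p-value and FDR (at most 0.001) from SICER, and the fold enrichment, a ratio scaled by the authors for library size. ChIP reads in called regions ranged from 2833105 to 11592708 per sample. Relative library size was recovered from that scaling. Total depth was not used here.

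Members and gene lists were chosen with earlier results of these data known. Regions merged at 1 bp of overlap were measured against GENCODE M21 starts. Coverage was the percent of sequence inside called regions. The strength of a member was its lowest fold enrichment over the samples that called it. The named members were those past the edgeR threshold, the 3 largest and 3 smallest ratios, the 3 strongest, longest and farthest, the 2 strongest of each single-condition pattern, and the deserts with most members or highest coverage. edgeR 4.0.16 used TMM normalization on counts divided by called length, and DESeq2 1.42.0 was an alternative. Scripts were tested on simulated data (Python 3.11.15, R 4.3.3). Other alternatives were limits of 250 kb and 1 Mb, starts of all gene types, an FDR of 1e-05, a fold enrichment of at least 2 and leaving out each replicate. No exact permutation test of 2 samples against 2 could give p below 0.33, and replicate origin beyond the word biological was not given in the sources used here. No genome sequence was used, so GC content and gaps of deserts were not analysed.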

Additional observations from a re-analysis of the deposited data

How the results depend on the processing

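The mature minus pre-adipocyte differences in desert share of regions and in the ratio of desert to other coverage kept their direction under every alternative. So did the desert minus other difference in fold enrichment. For the ratio, samples of the conditions overlapped at 250 kb (means of 0.803 in pre-adipocytes and 0.746 in mature adipocytes). They also overlapped at a fold enrichment of at least 2 (0.449 and 0.364). The mature minus pre-adipocyte difference in desert coverage (1.32 percentage points) reversed to -0.125 with starts of every gene type, a rule that left 4 members, and ranged from -0.052 to 2.70 when a replicate was left out, the negative value being that without pre-adipocyte replicate 2. The length difference of 150 bp turned to -50 bp at 1 Mb, -1525 bp with starts of every gene type and -250 bp at a fold enrichment of at least 2. The control density difference turned to -0.182 with starts of every gene type. The share of members called in both mature samples alone was 11.8% at 250 kb, 6.84% at 1 Mb, 0% with starts of every gene type, 11.6% at an FDR of 1e-05 and 6.05% at a fold enrichment of at least 2. The share called in both pre-adipocyte samples alone was 2.08% at 250 kb, 25% with starts of every gene type (of 4 members) and 1.84% at a fold enrichment of at least 2. The share called in all 4 was 0%, 20.1% and 2.21% with starts of every gene type, the FDR of 1e-05 and the fold enrichment of at least 2. Shares of the other autosomal regions are given at the main setting only. Whether members differ from them in calling pattern under the alternatives therefore cannot be judged here. At 250 kb, 1 Mb and a fold enrichment of at least 2, adhesion and synaptic genes were nearest to 12.6%, 26.3% and 16.5% of members, and developmental transcription factors to 7.47%, 8.03% and 7.41%. Axon guidance genes were nearest to 7.71% and 20.5% at 250 kb and 1 Mb, and adipogenic regulators to 3.36% at a fold enrichment of at least 2.

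Members called higher in mature adipocytes numbered 2 with DESeq2, 1 at an FDR of 1e-05, 8 with at least 50 reads, 0 with library size relative to control, 0 without the length offset, 0 at 1 Mb (where the Slc8a1-Pkdcc desert drops out), and from 1 to 17 when a replicate was left out (2 and 1 without mature replicates 1 and 2, 17 and 11 without pre-adipocyte replicates 1 and 2, where all regions gave 85 higher and 29 lower, and 86 higher and 111 lower). Members called lower numbered 0 to 1 in those fits. The remaining sample of a condition was assumed to vary like the other condition. Replicate numbers did not pair the samples (correlation of deviations 0.00775 for the same number and -0.00775 for different numbers). With a replicate block, 8 members were higher and 0 lower, and 20 and 7 of all regions. Without the length offset, the ratios of the members starting at 16823201 on chromosome 13 and 93274001 on chromosome 14 reversed to 0.61 and 0.53. The cause of these changes was not tested.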
